A study of Mus musculus with 6 samples.

Results

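Circular RNAs (circRNAs) form when the splicing machinery joins the end of a downstream exon back to the start of an upstream one, so that the read across this back-spliced junction gives the circle's position and its abundance. Most circRNAs of the brain come from exons of protein-coding genes, and tables of circRNAs therefore list a host gene beside each circle. The circles described here are those for which the table of mouse cortex circRNAs listed no host gene (unlisted-host circles) or listed several hosts at once (multi-host circles). They were chosen from the host column alone, and the circles on chromosome Y and in a short interval of chromosome X were left out. There were 889 such circles of 11171 in the table (7.96%), of which 828 had no listed host and 61 had several. The 10260 circles with a single listed host served as the comparison, and 22 circles were set aside.

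The libraries were made from ribosomal-RNA-depleted total RNA of the cortex of male C57BL/6 mice, 6 weeks old per the study's methods. The 3 Control mice had received saline injections, and the 3 mice of the temporal lobe epilepsy (TLE) group had received scopolamine methyl bromide and then pilocarpine, a muscarinic agonist that induces status epilepticus (SE), with tissue taken 24 h after SE. Per the study's methods, SE was ended with diazepam in the TLE mice, and the Control mice had saline in its place, so the groups also differed in diazepam. The RNA came from whole tissue, and in such bulk samples fewer cells of a type and less RNA per cell cannot be told apart. The study's methods name 3 male mice in each group, while the labels themselves do not tie each library to a mouse, and the p-values measure the spread between these libraries.

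Abundance was given in SRPBM, the ratio of a circle's junction reads to all mapped reads in the library, times a constant. One junction read was worth between 8.55 and 10.3 SRPBM, the smallest value listed was 2 reads, and 3 reads, taken here as the floor, came to between 25.6 and 31.0 SRPBM. The libraries held between 32504 and 56516 junction reads and between 3989 and 5976 circles, with the extremes both in the TLE group. Circles whose listed host was a neuronal marker summed to between 508 and 839 SRPBM per library (2 of 5 markers had a circle). Astrocyte marker hosts summed to at most 34.6 SRPBM (1 of 4 markers), and none of the 4 oligodendrocyte, 4 microglial or 4 endothelial markers had a circle. The table shows the hosts of circles and not messenger RNA levels, so these marker counts say little about the makeup of the tissue.

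The junctions of the most abundant circles with readable ends show what a circle of each kind looks like. In each line, the 15 lower-case bases end at the downstream splice donor and the 15 bases in capitals begin at the upstream splice acceptor, read 5′ to 3′ along the circle from the GENCODE M21 transcripts of build GRCm38. The first 3 belong to circles without a listed host and the last 3 to circles with several.
Tulp4, mmu_circ_0003712, chr17:6137211-6139156, plus strand: ggccacaacagtgagAGTTGTAAGAGTCCA
Slc8a1, mmu_circ_0003868, chr17:81647809-81649638, minus strand: gaacgatgaaatagtGTTGGAGCAGTTGGA
Rmst, mmu_circ_0000463, chr10:92075170-92136690, minus strand: gaatggcttcatgagATACTCAGGTTGATG
Eif4e3 and Gm20696, mmu_circ_0008951, chr6:99632257-99651791, minus strand: cagtgttttataaacATCACTCCCTGGTGC
Glcci1 and Gm45062, mmu_circ_0008880, chr6:8537817-8582790, plus strand: atgatcgtgataaagTGGACAGGCCAAAAT
Glcci1 and Gm45062, mmu_circ_0008879, chr6:8537817-8579739, plus strand: gaagaagtgtccaagTGGACAGGCCAAAAT
Both parts of the Tulp4, Slc8a1 and Rmst junctions occurred in annotated transcripts of 1 gene, the gene named. Both parts of the Eif4e3 junction occurred in transcripts of 2 genes, which were the hosts listed. Both Glcci1 circles began at the same acceptor and ended at different donors, and their parts occurred in transcripts of 3 genes, both listed hosts and Gm5815.

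The ends of the 828 unlisted-host circles were placed on annotated exons, since a missing host can mean that no gene is there or that a gene is there and was not named. The largest class, 247 circles (29.8%), had 1 end on an exon boundary and the other elsewhere. A further 198 (23.9%) overlapped an exon with neither end on a boundary, 119 (14.4%) lay within introns of a gene on the same strand, and 101 (12.2%) lay outside genes. Outside genes, here and below, means outside those of GENCODE M21. Some of the 101 overlapped a RefSeq gene on either strand, such as mmu_circ_0002260 with Gm30439. Another 68 (8.21%) overlapped a gene on the opposite strand only, and 30 (3.62%) joined exon boundaries of different genes. Both ends lay on exon boundaries of 1 gene in 64 circles (7.73%, 95% Wilson confidence interval 6.10 to 9.75%), against 91.0% of the single-host circles. One circle lay on a patch contig that was not in the annotation. The share with both ends on boundaries of 1 gene was 14.4% among the 188 unlisted-host circles found in at least 3 libraries.

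The 64 circles with both ends on exon boundaries of 1 gene carried 36.7% of the summed SRPBM of the unlisted-host circles, the largest share of any class. They came from 40 genes, of which 28 were protein-coding, and 31 of the 40 also had circles for which the table did list that gene. In 26 of the 64 an annotated transcript held both boundaries, as in Slc8a1. In the others, Tulp4 and Rmst among them, the boundaries belonged to exons of different transcripts of the gene. Over all circles of a set, an annotated transcript held both ends in 26 of the 828 unlisted-host circles (3.14%). For the single-host circles it was 9211 of 10260 (89.8%). The class "overlaps an exon" held the next largest share of SRPBM (27.3%), of which most came from a pair of circles on an unplaced contig, and the 247 circles with 1 end on a boundary held 12.9%.

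**Figure D1:**
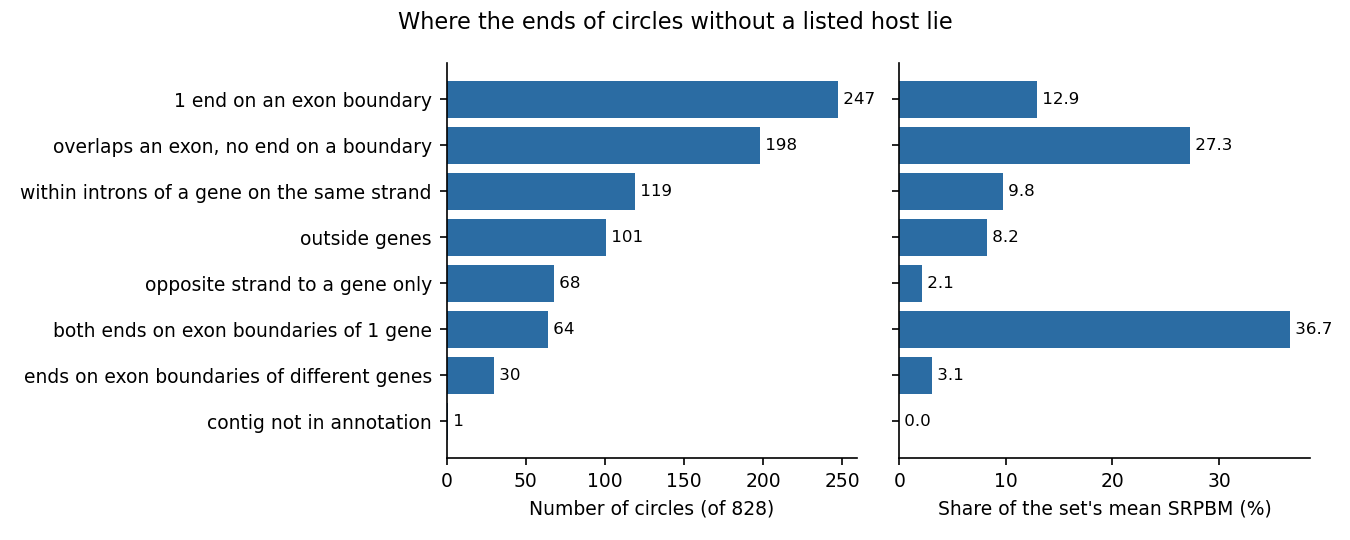
Number of unlisted-host circles (left, of 828) and percent of their summed mean SRPBM (right) in each class of end position. The 64 circles with both ends on exon boundaries of 1 gene are few but hold 36.7% of the SRPBM.

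The most abundant circle without a listed host was mmu_circ_0003712 of Tulp4, which codes for a member of the tubby-like protein family. Its SRPBM was 4965, 4500 and 4393 in the Control libraries and 5247, 4822 and 5529 in the TLE libraries. The groups overlapped, and the log2 fold change of TLE against Control was 0.17 (SE 0.18; limma, adjusted p = 0.922). The 6 circles listed with Tulp4 as their host had a summed mean of 421 SRPBM, so the unlisted circle was the major circle of this gene by more than all its listed ones together. Another Tulp4 circle without a listed host, mmu_circ_0003709, had a mean of 43.6 SRPBM. Its groups overlapped (log2 fold change 0.64, SE 0.66; limma, adjusted p = 0.922). The Tulp4 circle mmu_circ_0003711 (chr17:6121828-6139156), also without a listed host, shared the downstream end of mmu_circ_0003712. None of the Control libraries showed it, and the TLE libraries had 20.7, 17.5 and 34.6 SRPBM, from 8 junction reads in total. It entered the test of single circles only through the TLE libraries, so its values had to differ between the groups.

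Next came mmu_circ_0010875, which spanned JH584304.1:25369-60857 on the minus strand of an unplaced contig and overlapped exons of the gene AC149090.1. It stood at 3153, 3319 and 3178 SRPBM in Control, against 4638, 3586 and 3176 in TLE. Its neighbour mmu_circ_0010874 (JH584304.1:25369-59773) used the same low end and stood at 393, 493 and 534 SRPBM in Control, against 1095, 526 and 588 in TLE. In both circles TLE replicate 1, the shallowest library, was the highest of all and the groups overlapped. The log2 fold changes were 0.22 (SE 0.20) for mmu_circ_0010875 and 0.55 (SE 0.27; limma, adjusted p = 0.922) for mmu_circ_0010874. Neither end of these circles lay in an annotated exon.

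The third circle, mmu_circ_0003868, was a single exon of 1830 bases of Slc8a1, the gene of the sodium-calcium exchanger NCX1. Its values were 1308, 1534 and 1766 SRPBM in Control and 1198, 1622 and 1722 in TLE, and the log2 fold change was -0.03 (SE 0.21). The Control and TLE ranges almost coincided. The 4 circles listed with Slc8a1 as host had a summed mean of 724 SRPBM, less than this 1 circle.

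Rmst is a long non-coding RNA with a known part in neurogenesis. Its circle mmu_circ_0000463 stood at 419, 428 and 422 SRPBM in Control, against 444, 465 and 597 in TLE. Every TLE value was above every Control value, but the log2 fold change was 0.23 (SE 0.23; limma, adjusted p = 0.922). The circle mmu_circ_0007951 joined an exon boundary of N4bp2l2 to one of the overlapping gene Gm43597 and stood at 205, 307 and 345 SRPBM in Control and 238, 307 and 415 in TLE. Spire1 codes for an actin-nucleating protein, and its circle mmu_circ_0004193 (chr18:67545615-67587859) had 197, 186 and 207 SRPBM in Control against 331, 219 and 355 in TLE. The Spire1 values did not overlap between the groups (log2 fold change 0.55, SE 0.28; limma, adjusted p = 0.922).

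Gm2164, a non-coding gene of chromosome 4, held the most abundant intronic circle, mmu_circ_0007138 (chr4:124556045-124586127). It stood at 752, 920 and 732 SRPBM in Control and 475, 824 and 943 in TLE. Around it lay a locus of 9 overlapping circles without a listed host, with a summed mean of 966 SRPBM. The locus summed to 966, 1078 and 982 SRPBM in Control and 630, 982 and 1159 in TLE, so the groups overlapped. At chr15:5278958-5333050, 3 overlapping circles summed to 231, 288 and 336 SRPBM in Control and 661, 202 and 433 in TLE. The most abundant of them, mmu_circ_0002881 with a mean of 246 SRPBM, lay outside genes, and mmu_circ_0002877 overlapped an exon of Gm49093. The circle mmu_circ_0003384, of only 411 bases (chr16:60837773-60838183), lay outside genes and had a mean of 183 SRPBM.

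**Figure D2:**
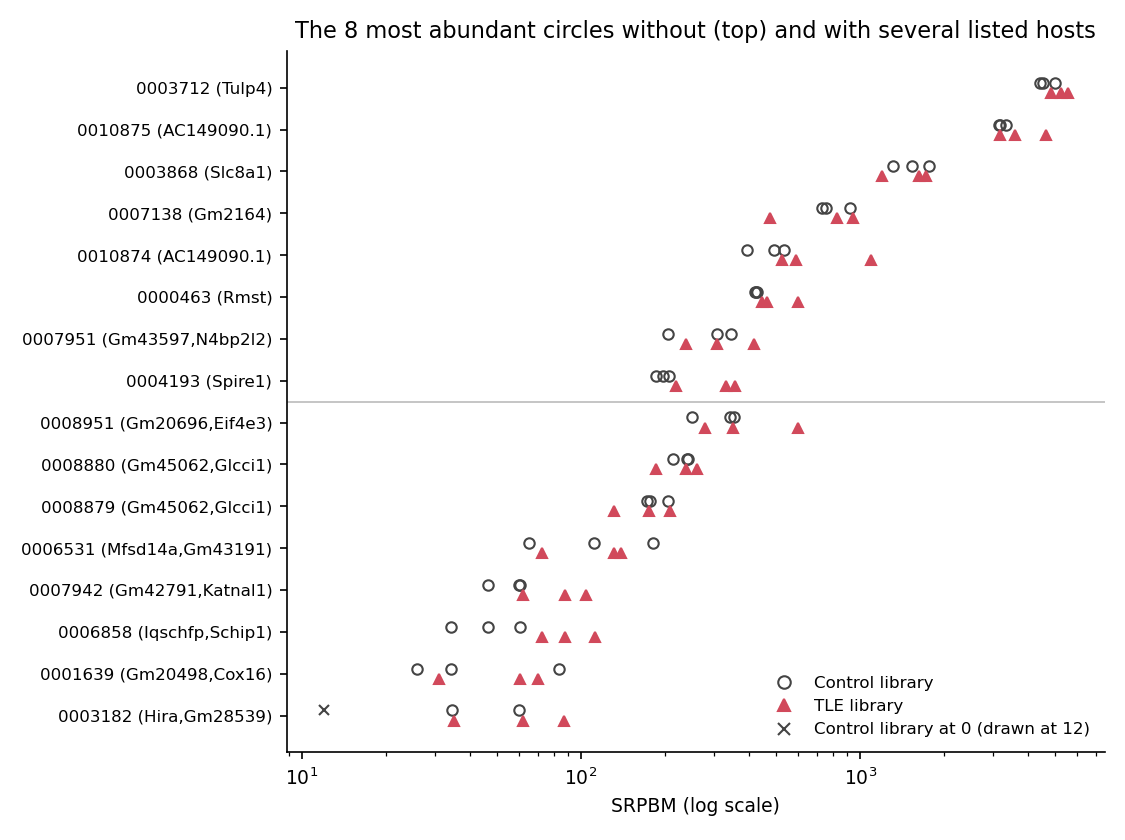
SRPBM (log scale) of the 8 most abundant circles without a listed host (above the line) and the 8 with several (below it), with 1 mark per library. Open circles are Control and triangles TLE libraries. Tulp4 leads at 4393 to 5529 SRPBM, and in most circles the groups overlap.

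Most unlisted-host circles were found in a single library. Of the 828, 513 (62.0%) were found in 1 library and 45 (5.43%) in all 6, against 44.1% and 14.6% of the single-host circles. Among the 61 multi-host circles 25 (41.0%) were found in 1 library and 9 (14.8%) in all 6. Summed over the 6 libraries, the median junction read count was 3 for a circle without a listed host, 7 for a multi-host circle and 5 for a single-host circle. Unlisted-host circles carried 5.87% of all SRPBM and multi-host circles 0.472%.

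Within each library, the median SRPBM of the detected unlisted-host circles was 0.75 times that of the single-host circles, the equivalent of 3 junction reads against 4. This held in 6 of 6 libraries (p = 0.0312 by a two-sided exact paired permutation test, its lower limit for 6 libraries). Among circles found in at least 3 libraries the ratio was 0.87 (p = 0.125, the same exact test). Multi-host circles had a ratio of 0.99 to single-host circles (p = 1, the same exact test), with values between 0.75 and 1.25 in single libraries. Many of the same circles recur across libraries, so the p-values of this test do not measure the spread among circles.

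The genomic span, the distance between the ends of a circle, includes introns that may have been spliced out. Unlisted-host circles had a median span of 18446 bases (quartiles 4002 and 59122), multi-host circles 6741 (quartiles 3718 and 17127) and single-host circles 14606. Of the unlisted-host circles 97 (11.7%) were over 100000 bases, against 3.95% of the single-host circles, and 86 (10.4%) were under 1000 bases, against 4.67%. The shortest, mmu_circ_0009066, had 220 bases and lay in an intron of the sulfotransferase gene Hs3st4. The 3 longest, led by mmu_circ_0009406 with 197768 bases, all lay in 1 interval of chromosome 7.

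Over the circles detected in a library, the ratio of the median spans of unlisted-host and single-host circles was 1.18, with 5 of 6 libraries above 1 (two-sided exact paired permutation test, p = 0.0938). This ratio rested on the chromosome 7 interval. Without the circles of that interval it was 0.71, below 1 in 6 of 6 libraries (p = 0.0312, the same exact test), an alternative chosen after the values were seen. The 605 unlisted-host circles outside the interval had a median span of 10060 bases. For multi-host circles the ratio was 0.55, also below 1 in 6 of 6 libraries (p = 0.0312, the same exact test). As with the SRPBM ratios, the libraries share circles, and these p-values do not measure the spread among circles.

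**Figure D3:**
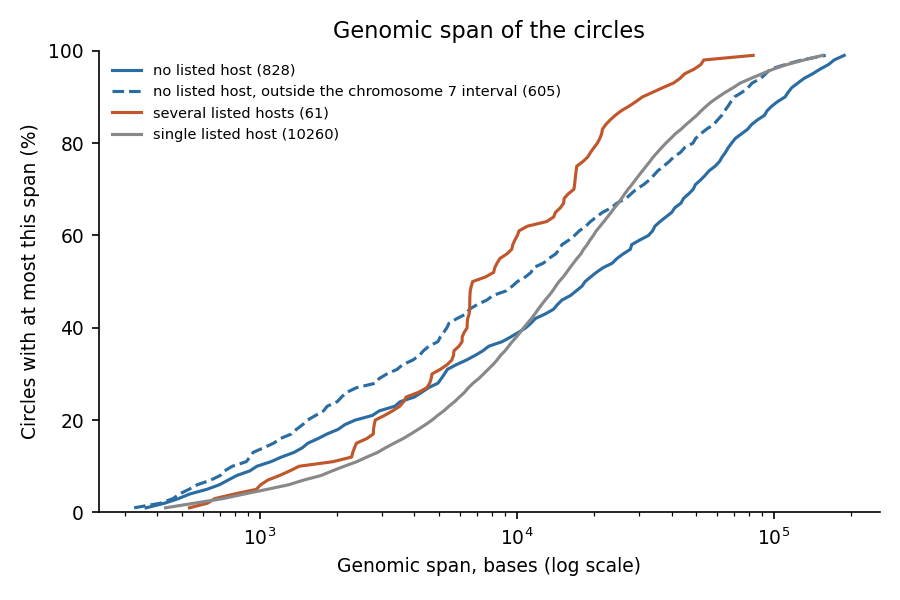
Percent of circles (vertical axis) with at most a given genomic span in bases (horizontal, log scale) for 4 sets. The solid blue line of the unlisted-host circles (median 18446) lies to the right of the dashed line without the chromosome 7 interval (median 10060).

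Chromosome 7 held 259 of the unlisted-host circles (31.3%), against 4.50% of the single-host circles. An interval of 3.01 megabases, chr7:59197791-62203434, accounted for 223 of them, or 26.9% of all circles without a listed host, and for 10.8% of their SRPBM. This is the mouse region that corresponds to the Prader-Willi and Angelman syndrome region. It holds Snhg14, an imprinted non-coding gene expressed in neurons from the paternal allele, which carries the Snord115 and Snord116 clusters of small nucleolar RNAs (snoRNAs) in its introns. On the minus strand, which is the strand of Snhg14, lay 222 of the 223 circles. The table listed a host for 15 circles of this interval, of which 8 were listed with Snhg14. The interval's bounds were set from the positions of the circles after these were seen.

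The circles of this interval were long and were mostly seen once. Their median span was 61099 bases (quartiles 27688 and 115212), and 145 (65.0%) were found in 1 library and 9 in all 6, against 60.8% in 1 library for the unlisted-host circles elsewhere. The minus strand held 210 annotated snoRNA genes, and 157 of the circles enclosed at least 1 of them, with a median of 32 and a maximum of 99. By position, 122 circles lay in the Snord115 side of Snhg14 and 17 in the Snord116 side. Another 16 lay between Snrpn and the non-coding gene A230006K03Rik, 22 in and around A230006K03Rik, and 19 in the cluster of Mir344 microRNA genes. The remaining circles crossed the bounds of these stretches or lay outside them.

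In the Snord115 side the snoRNA genes stood in a regular array: 126 genes had a median spacing of 1871 bases, and 112 of 125 spacings were within 10 bases of it. The array was cut at the upper bound of this side, and snoRNA genes at about this spacing went on beyond it. Among the circle ends, the high ends followed this spacing more closely than the low ends. The 122 circles used 82 distinct high ends, whose median spacing was 1872 bases, and 34 of 81 spacings were within 10 bases of the snoRNA spacing. Their distinct low ends had a median spacing of 5450 bases, and 6 of 27 spacings were within 10 bases of the snoRNA spacing. Distances were measured from the lowest coordinate of the snoRNA gene below an end, which is the downstream end of these minus-strand genes. By this measure a high end lay at 1 of a pair of places. There were 59 high ends between 1614 and 1639 bases and 19 between 262 and 263 bases, and 3 lay farther away. The low ends had a similar pair of places, with 14 between 1376 and 1590 bases and 11 between 131 and 141 bases. On the minus strand a high end is an acceptor and a low end a donor.

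Few low ends served many high ends. The 122 circles of the Snord115 side had 28 distinct low ends, of which the 4 most used belonged to 19, 19, 19 and 14 circles, 71 circles together. No high end belonged to more than 3 of the 122 circles. Circles that reached past the upper bound of the Snord115 side are not in these counts. The low end at 59449384, for example, was used by 26 circles in all, with spans of 11054 to 166122 bases, and 19 of them lay wholly within the array. None of the circles at these 4 low ends that lay within the array was found in all 6 libraries.

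Some exons of the array share the bases at their ends. The circle ends within the array that lay on annotated Snhg14 exons of build GRCm38 were 5 acceptors with 3 different sequences and 4 donors with 3 different sequences, and all are shown. The capitals are the first 15 bases of an exon at a circle's acceptor, and the lower-case bases are the last 15 bases of an exon at a circle's donor.
Snhg14 acceptor, chr7:59384750-59384764, minus strand: GTTTCCAAAGTGCCT
Snhg14 acceptor, chr7:59393307-59393321, minus strand: TCATCTCACATGCCA
Snhg14 acceptor, chr7:59447120-59447134, minus strand: TCATCTCACATGCCA
Snhg14 acceptor, chr7:59448989-59449003, minus strand: TCATCTCACATGCCA
Snhg14 acceptor, chr7:59451364-59451378, minus strand: GGAAGACATTCTTCC
Snhg14 donor, chr7:59391831-59391845, minus strand: gttttggaaaggaag
Snhg14 donor, chr7:59406912-59406926, minus strand: aacacagataatcag
Snhg14 donor, chr7:59408782-59408796, minus strand: atcacagataatcag
Snhg14 donor, chr7:59449384-59449398, minus strand: gttttggaaaggaag
The acceptors at 59393307, 59447120 and 59448989 had the same 15 bases, and so had the donors at 59391831, used by 9 circles, and 59449384, used by 26. A single annotated Snhg14 transcript held this acceptor sequence 4 times and this donor sequence 4 times. The other ends differed from these, and their exons had between 34 and 168 bases. These 15 bases do not tell the copies that share them apart, so they do not show which copy a circle with such ends came from. Whether the full reads tell the copies apart was not tested.

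The longest circle, mmu_circ_0009406 (chr7:59488404-59686171), had its high end beyond the array and stood at 205, 195 and 146 SRPBM in Control, against 0, 219 and 130 in TLE. It was at 0 in TLE replicate 1, and its log2 fold change was -1.23 (SE 0.67; limma, adjusted p = 0.922). The circle mmu_circ_0009409 has the same high end and a low end 18509 bases away, and it stood at 227 SRPBM in TLE replicate 1 and at 0, 0 and 25.8 in Control and 26.3 and 0 in the other TLE libraries. The 4 circles with this high end summed to 205, 214 and 207 SRPBM in Control and 227, 272 and 147 in TLE, or 209 ± 4.65 against 215 ± 63.2 (SD, n = 3 each). The sum had no library at 0. These circles were set side by side after their values were seen, and how reads were assigned between them was not tested.

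**Figure D4:**
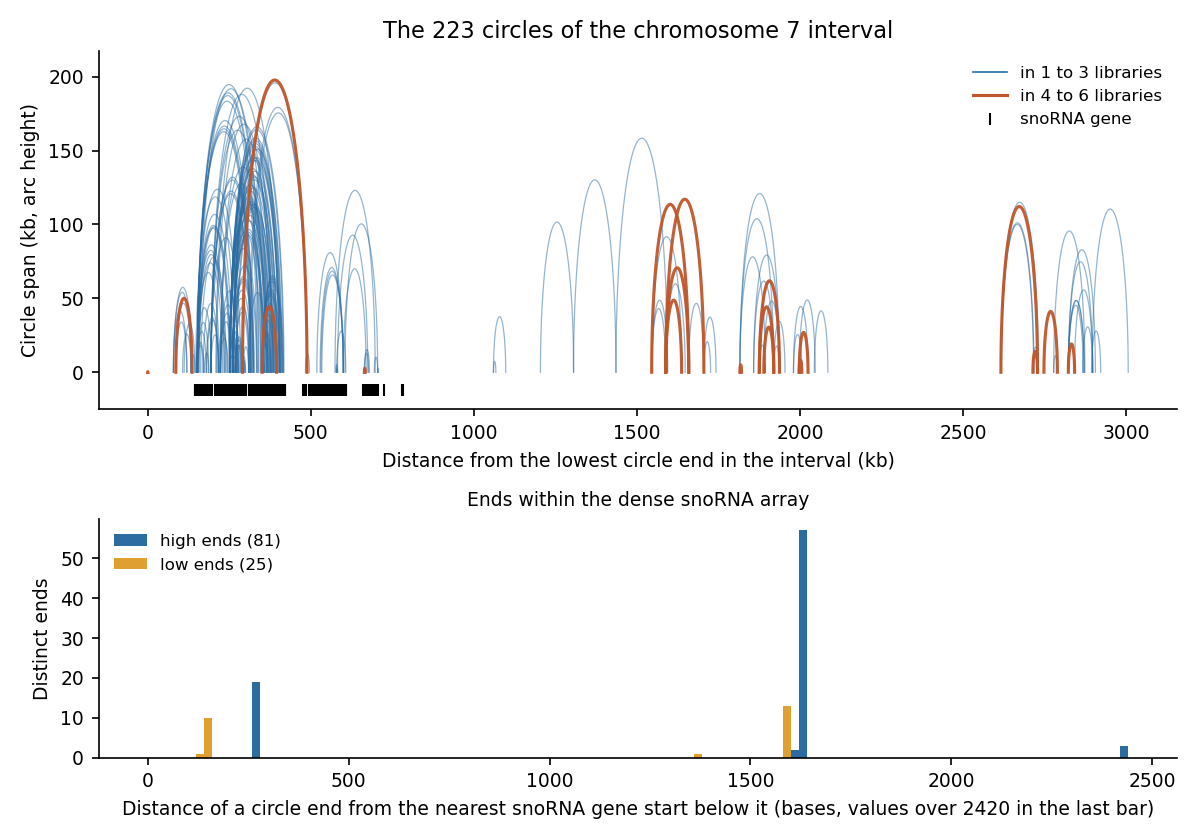
Top, the 223 circles of the chromosome 7 interval as arcs between their ends, in kb from the lowest end, with the arc height giving the span in kb and ticks marking snoRNA genes. Bottom, the number of distinct circle ends at each distance, in bases, from the lowest coordinate of the snoRNA gene below it (named start on the axis), where the high ends gather at 262 to 263 and at 1614 to 1639 bases.

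Over the whole interval the summed SRPBM was 1880, 2659 and 2179 in Control and 2025, 2586 and 3106 in TLE. The groups overlapped, and TLE was 1.15 times Control (p = 0.5 by a two-sided exact permutation test, in which 3 libraries against 3 cannot go below 0.1). As a share of each library's SRPBM the interval had 0.648% ± 0.139 in Control and 0.624% ± 0.0178 in TLE (SD, n = 3 each; exact permutation test, p = 0.9). The most abundant circle of the interval was mmu_circ_0009490 of A230006K03Rik (chr7:61194987-61202989), with 239, 279 and 0 SRPBM in Control and 207, 289 and 312 in TLE. The next, mmu_circ_0009467 (chr7:60785638-60856304), lay outside genes and had 103, 158 and 146 SRPBM in Control and 165, 132 and 216 in TLE.

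A value of 0 beside high values recurred in other circles. Of 21 unlisted-host circles with a mean of at least 100 SRPBM over the 5 libraries other than the lowest, 4 were at 0 in the lowest one, against 39 of 712 single-host circles (5.48%). Besides mmu_circ_0009406 and mmu_circ_0009490 these were mmu_circ_0000907 and mmu_circ_0004021. The first belongs to Ogdh, a gene of the citric acid cycle, and stood at 128, 0 and 138 SRPBM in Control and 114, 105 and 156 in TLE. The second belongs to Apc, a regulator of Wnt signalling, and stood at 145, 158 and 121 in Control and 0, 114 and 112 in TLE. None of the 4 multi-host circles of this abundance was at 0 in a library. These circles are listed at 0, and whether the junction was absent or not called cannot be told apart.

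Many unlisted-host circles overlapped one another. They fell into 458 loci on a strand, of which 353 held 1 circle and 35 held at least 3, with 335 circles in these 35. Among the 35 loci with at least 3 circles, those with the highest summed SRPBM were Tulp4 (5 circles, 4986 SRPBM), Gm2164 (9 circles, 966), Snhg14 (140 circles, 821), the stretch chr7:60401677-60939881 (14 circles, 394) and the chromosome 15 locus (3 circles, 358). An end was shared with another unlisted-host circle in 441 (53.3%) and with a single-host circle in 134 (16.2%).

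Multi-host circles lay on annotated exons. Both ends lay on exon boundaries of 1 gene in 54 of the 61 (88.5%, 95% Wilson confidence interval 78.2 to 94.3%), against 91.0% of the single-host circles. An end on a boundary that belonged to at least 2 of the listed hosts was also found in 54 circles, but not in the same 54. This second count took in circles among the 7 with only 1 end on an exon boundary. It left out some with both ends on boundaries of 1 gene. Both ends of the Nnt circles mmu_circ_0001843 and mmu_circ_0001844, for example, lay on boundaries of Nnt alone. There were 37 combinations of hosts with 68 genes, and 60 circles listed 2 hosts and 1 circle listed 3. In 32 combinations, with 54 circles, at least 1 host had a transcript annotated as read-through, a transcript that runs from a gene into its neighbour. In 50 circles a host carried a clone-style name, Gm with a number.

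Eif4e3, which codes for a cap-binding protein of the translation initiation factor family, shared the most abundant multi-host circle, mmu_circ_0008951, with Gm20696. It stood at 342, 353 and 250 SRPBM in Control and 279, 351 and 597 in TLE, and the groups overlapped (log2 fold change 0.31, SE 0.29; limma, adjusted p = 0.922). The annotated exons between its ends numbered 5 in Eif4e3 and 2 in Gm20696. Exons here and below were counted in annotated transcripts with both ends as exon boundaries, taking the transcript with the fewest. The inner exons of the circles themselves were not examined. Glcci1, a glucocorticoid-induced gene, shared 3 circles with Gm45062, all starting at the same acceptor. The circle mmu_circ_0008880, with 5 annotated exons between its ends, had 239, 214 and 241 SRPBM in Control and 186, 237 and 260 in TLE. The circle mmu_circ_0008879, with 4 annotated exons between its ends, had 205, 177 and 172 in Control and 176, 132 and 208 in TLE. The locus as a whole summed to 438 SRPBM.

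Mfsd14a, a gene of the major facilitator transporter family, shared mmu_circ_0006531 with Gm43191, at 111, 65.1 and 181 SRPBM in Control and 72.3, 131 and 138 in TLE. Katnal1, which codes for a katanin-like microtubule-severing protein, shared mmu_circ_0007942 with Gm42791. It stood at 59.8, 46.5 and 60.3 SRPBM in Control and 62.0, 87.7 and 104 in TLE, so that all TLE values were above all Control values (log2 fold change 0.47, SE 0.42; limma, adjusted p = 0.922). Schip1, whose protein binds the tumour suppressor merlin, shared the single-exon circle mmu_circ_0006858 of 684 bases with Iqschfp. Its values were 34.2, 46.5 and 60.3 in Control and 72.3, 87.7 and 112 in TLE, again without overlap (log2 fold change 0.76, SE 0.43; limma, adjusted p = 0.922).

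A further pair of multi-host circles stood among the 8 most abundant. Cox16, a gene for assembly of cytochrome c oxidase, shared mmu_circ_0001639 with Gm20498 at a mean of 50.9 SRPBM, and Hira, which codes for a chaperone of histone H3.3, shared mmu_circ_0003182 with Gm28539 at a mean of 46.3. The combination with most circles was Srcap, a chromatin remodelling ATPase, with Gm42715 (7 circles, 58.2 SRPBM together), followed by the transcription factor gene Foxp1 with Gm20696 (5 circles, 59.6 SRPBM together). The longest multi-host circle, mmu_circ_0008936 of Foxp1, spanned 127002 bases. Between its ends lay 2 annotated exons of 225 bases together, counted in the transcript with the fewest. The shortest, mmu_circ_0009090 of Srcap, spanned 414 bases.

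The comparison of TLE with Control asked whether these circles changed 24 h after SE. The summed SRPBM of the unlisted-host circles was 20450, 20909 and 21284 in Control and 21702, 22523 and 26798 in TLE. The groups did not overlap, and the ratio was 1.13 (p = 0.1 by the two-sided exact permutation test, its lower limit). As a share of each library's SRPBM the direction turned, with 6.02% ± 0.266 in Control and 5.82% ± 0.560 in TLE (SD, n = 3 each; exact permutation test, p = 0.6). The summed SRPBM of the single-host circles was likewise 1.19 times higher in TLE (p = 0.3, the same exact test). For the multi-host circles the sum was 1636 ± 146 in Control and 1944 ± 468 in TLE (SD, n = 3 each; exact permutation test, p = 0.4), and their share of the library was 0.470% in both groups.

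The number of unlisted-host circles detected was 256, 252 and 263 in Control and 205, 262 and 350 in TLE (exact permutation test, p = 0.8). The lowest and the highest number belonged to the shallowest and the deepest library. When every library was thinned to 32504 junction reads, the mean of 20 draws was 212, 237 and 216 circles in Control and 205, 202 and 222 in TLE, a ratio of 0.94 (exact permutation test, p = 0.3). Of the multi-host circles 27, 24 and 30 were detected in Control and 21, 31 and 34 in TLE (exact permutation test, p = 0.7).

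Circles detected in 3 or more libraries were tested singly with limma on log2(SRPBM + 17.1), which understates the change of circles with few reads. This filter passed 188 of the 828 unlisted-host circles and 28 of the 61 multi-host circles. A call needed an absolute log2 fold change of 1.5 or more together with an unadjusted p under 0.05, the threshold of the study. Of the unlisted-host circles 0 were called higher in TLE and 1 was called lower, and of the multi-host circles 0 were called, against 1.57% of all 4271 circles tested (1.26% higher and 0.304% lower). An unadjusted p under 0.05 was reached by 11 unlisted-host circles (4 higher and 7 lower) and 1 multi-host circle, against 5.2% of all tested. The number of unlisted-host circles called rose to 12 (4 higher and 8 lower) when the pseudocount was 8.55 in place of 17.1, and 3.93% of all circles tested were called in that fit. It was 4, 3 and 8 without Control replicates 1, 2 and 3, where 2.82%, 2.58% and 2.95% of all circles tested were called. Without TLE replicates 1, 2 and 3 it was 6, 5 and 8, where the shares of all circles tested were 2.20%, 2.23% and 2.51%. After Benjamini-Hochberg adjustment over all circles tested in limma, 0 reached 0.05, and the smallest adjusted p was 0.838. The median log2 fold change was 0.13 for the unlisted-host and -0.04 for the multi-host circles, against 0.17 for all circles tested, and became -0.03, -0.23 and 0.01 when every library was scaled to the same total.

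The circle called lower was mmu_circ_0009458, outside genes at chr7:60401677-60503313 on the minus strand, in the stretch of the chromosome 7 interval between Snrpn and A230006K03Rik. It stood at 25.6, 46.5 and 25.8 SRPBM in Control, against 0 in the 3 TLE libraries (log2 fold change -1.52, SE 0.56; limma, adjusted p = 0.838). These values were 11 junction reads in total. The Control mean was 1.18 times the TLE floor of 3 reads per library. Control replicates 1 and 3 were themselves at their floor, so this is not a minimum for the change. The circle passed the filter only through the 3 Control libraries, so its values had to differ between the groups, and without any 1 of these libraries it was not tested.

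Counting circles whose TLE and Control values did not overlap, 24 of the 188 unlisted-host circles (12.8%) and 5 of the 28 multi-host circles (17.9%) were of this kind, against 11.1% of all circles tested. In the unlisted-host circles 13 were above and 11 below, and in the multi-host circles 5 were above and 0 below, where all circles tested had 8.94% above and 2.11% below. Of the 24 unlisted-host circles, 13 had a lower group at or under the floor. In 9 of the 24, and in 1 of the 5 multi-host circles, the lower group was at 0 in every library. Such circles passed the filter only through the group where they were found and had to differ, which holds for 116 of the 472 circles without overlap among all tested. Among those below besides mmu_circ_0009458 were mmu_circ_0010956 of the kinase gene Wnk3 (34.2, 18.6 and 43.1 SRPBM in Control and 0 in the 3 TLE libraries) and mmu_circ_0000570 in an intron of Pitpnc1, a phosphatidylinositol transfer protein gene (42.7, 27.9 and 17.2 in Control and 0 in the 3 TLE libraries). Among those above were mmu_circ_0008824, which joined A430010J10Rik and E230016M11Rik (25.6, 18.6 and 34.5 in Control and 51.6, 61.4 and 69.2 in TLE), and the multi-host circle mmu_circ_0006897 of Arfip1 and Gm37240. The Arfip1 circle was at 0 in Control, against 41.3, 17.5 and 26.0 in TLE, 9 junction reads in total (limma, adjusted p = 0.838). Its TLE mean was 1.07 times the Control floor. TLE replicates 2 and 3 were themselves at or under their floor, so this is not a minimum for the change. The Wnk3, Pitpnc1 and Arfip1 circles are of the kind that passed through 1 group alone. These 4 were picked after their values were seen, and none of them was called.

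**Figure D5:**
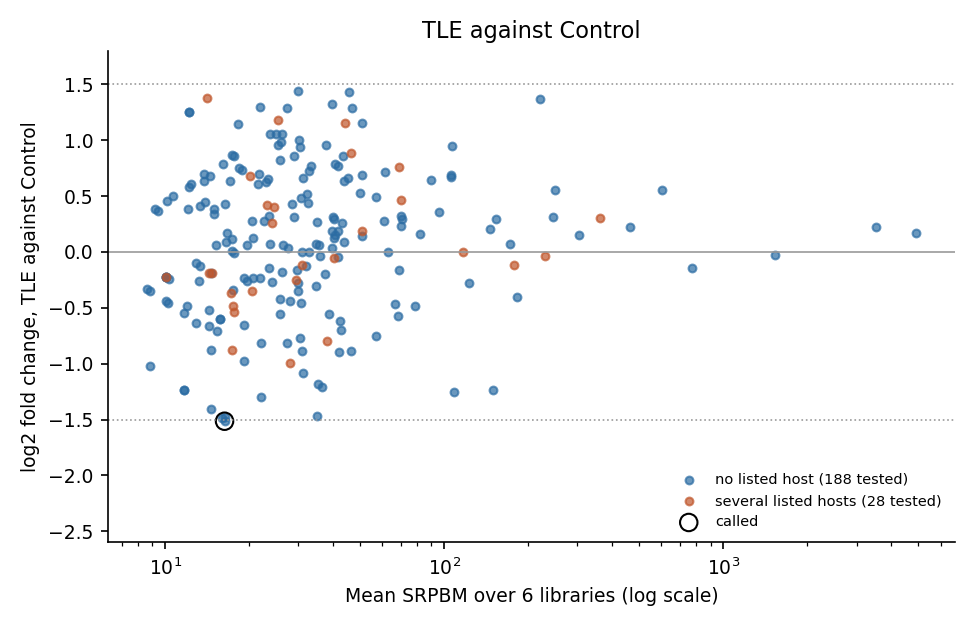
Log2 fold change of TLE against Control (limma) against the mean SRPBM over 6 libraries (log scale) for the 188 unlisted-host and 28 multi-host circles tested. Dotted lines mark 1.5 in either direction, and the ring marks the 1 circle called, mmu_circ_0009458, at 16.3 SRPBM.

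Lists of hosts chosen for the cortex were applied to the genes that the unlisted-host circles overlapped on their own strand. Of 24 imprinted genes, Snhg14 held circles, 165 in number. Of these 9 were tested and 0 were called, with a median log2 fold change of -0.12. Of 14 genes known for abundant cortical circles, Nbea, Rere, Rims2, Rmst and Tulp4 held 11 circles, of which 9 were tested and 0 called. Their median log2 fold change was 0.43, against 0.17 for all circles tested. The circles tested included mmu_circ_0003711 of Tulp4, which passed the filter only through the TLE libraries. None of the 12 activity-regulated genes, Homer1, Bdnf, Fos and Arc among them, overlapped an unlisted-host circle. Clustered protocadherins were overlapped by 2 circles and genes of microRNAs or snoRNAs with Mir or Snord symbols by 26, of which 1 and 5 were tested and 0 called. The multi-host circles held no gene of these lists.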

How the data were processed

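The authors filtered the reads for adapters, quality, undetermined bases and ribosomal RNA, identified circRNAs with CIRI on BWA-MEM alignments, and deposited for each circle a signal per library in SRPBM (junction reads over mapped reads, times a constant), with mm10 (GRCm38) named in the submitters' processing notes. The authors used DESeq2 for their own comparison. Versions are not given in the sources used here. The 6 deposited files held the same table, and 1 was used. Each library's values were whole multiples of 1 step, within 0.02 steps, with 2 steps as the smallest value, and a step was taken as 1 junction read. Precision is set by these reads (32504 to 56516 per library). Intervals and floors cover counting error only, since reads carried no molecular identifiers.

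Ends were compared with GENCODE M21 exons (GRCm38). Genome sequence and repeats were not used here. The test of single circles was limma (version 3.58.1, under R 4.3.3; moderated by eBayes with a trend; two-sided; Benjamini-Hochberg over 4271 circles) on log2(SRPBM + 17.1), the smallest value above 0, without covariates, after the steps were tested on simulated data. The design had assumed that count tests could be added on the recovered reads. Sums, numbers and medians were compared with exact permutation tests (Python 3.11.15, SciPy 1.17.1). The circles described singly were, in each set, the 8 with the highest mean, those called, the 3 longest and 3 shortest, and loci of at least 3 overlapping circles. Other circles named were chosen after their values were seen. The members, lists and rules were chosen with earlier results of these data known.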

Additional observations from a re-analysis of the deposited data

How the results depend on the processing

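Count tests (edgeR and DESeq2) on the recovered junction reads had been planned and were not run. The number of unlisted-host circles called, 1 in the main comparison, was 12 with a pseudocount of 8.55 SRPBM, 9 with a pseudocount of 1 SRPBM, 3 without a filter on low values, 3 with a filter on the mean, 5 (all lower) after scaling the libraries to the same total, 11 at a log2 fold change of 1, and between 3 and 8 with any library left out. Of all circles tested, 1.57% were called in the main comparison, against 3.93%, 3.04%, 0.636%, 1.27%, 1.45% and 4.59% under these settings in turn and 2.20% to 2.95% with a library left out. The multi-host count, 0, became 1 with either smaller pseudocount and at a log2 fold change of 1, and was between 0 and 1 with a library left out. The replicate block left the counts at 1 and 0, and same-numbered libraries correlated at 0.0192, 0.0139 and 0.0103 in their deviations from the group means. The adjusted p stayed over 0.05 in limma under these alternatives, the smallest being 0.267 with a pseudocount of 1 SRPBM. The circle mmu_circ_0009458 passed the filter only through its 3 Control libraries and was not tested without any one of them, so leaving out a library says nothing of its stability.

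The ratio of TLE to Control turned below 1 for the unlisted-host sum as a share of the library (0.967), for their number as a share of detected circles (0.949), thinned to 32504 junction reads per library (0.945) or without TLE replicate 3 (0.909; range with a library left out 0.909 to 1.19), and likewise for the multi-host sum (0.998) and number (0.956, 0.995 and, without TLE replicate 3, 0.963; range 0.963 to 1.20). The use of 20 draws in place of 1 was chosen after the result of 1 draw was seen. The span ratio of unlisted-host circles turned to 0.707 without the chromosome 7 interval. Their SRPBM ratio was 0.868 (p = 0.125, exact permutation test) among circles in at least 3 libraries and 0.75 with any library left out, where the smallest possible p is 0.0625. The multi-host span ratio was 0.492 to 0.58 with a library left out, and the multi-host SRPBM ratio was 1.03 on the log mean and 1.05 without Control replicate 2 (range 0.944 to 1.05). The share of unlisted-host circles with both ends on exon boundaries of 1 gene was 14.4% among those in at least 3 libraries. The cause was not tested. Depth limited what could be tested: the median unlisted-host circle had 3 junction reads in total, and 188 of the 828 passed the filter.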
